A study of Mus musculus with 6 samples.

Results

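Plexins are transmembrane receptors that turn contact with a semaphorin into changes of the cytoskeleton and of adhesion, and semaphorins are their membrane-bound or secreted ligands. The pairs were first known from axon guidance and also steer lymphocytes. The 8 genes described here are the plexin genes Plxnb2, Plxnd1, Plxnc1 and Plxna1 and the semaphorin genes Sema4a, Sema4b, Sema4d and Sema7a, listed by symbol for their place in lymphoid guidance. All 8 are among the 15861 genes of the deposited count table. Polyadenylated RNA came from mouse germinal centre B cells, the B cells in which antibody affinity matures, sorted as B220+ GL7+ FAS+. The KO group held 3 C57BL/6 mice with the alleles Lsd1 f/f and Cgamma-cre+/-, and the WT group held 3 C57BL/6 littermates with Lsd1 f/f and no Cre, so both groups carried the floxed alleles. The sources used here give neither age nor immunisation. No mouse with Cre alone was analysed here, so Cre and the deletion cannot be told apart. Each library is 1 mouse.

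In germinal centres the B cell and T follicular helper cell meet briefly, and guidance receptors tune who stays in contact. Plexin B2 is a receptor for class 4 semaphorins that is known on germinal centre B cells, where it meets Sema4C on T follicular helper cells. Plexin D1, a receptor of Sema3E, has a role in germinal centre responses of mice. Sema4D, also called CD100, is carried by T and B cells and binds plexins of the B class as well as CD72, an inhibitory receptor of B cells. Sema7A is tied to the membrane by a lipid anchor and binds plexin C1 and beta 1 integrins.

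KO libraries held 12325300, 14327654 and 13127510 counts and WT libraries 3786455, 5524852 and 3390805 counts. Every KO library was thus deeper, and genotype and depth cannot be told apart. Levels are CPM, counts scaled to a common library total, on library sizes adjusted by edgeR's TMM factors. Kdm1a, the current name of Lsd1, was read at 81.9, 33 and 21.8 CPM in KO libraries, against 134, 85.2 and 92.6 CPM in WT libraries (log2 fold change -1.19, SE 0.50, edgeR adjusted p = 0.393). As a share of the library total, KO 1 held 87.5 CPM of Kdm1a, within the WT range of 78.9 to 135 CPM. KO 1 is therefore called the library labelled KO 1 where a result rests on it, and such values are also given without it. The 14 germinal centre B cell markers, among them Cd79b, summed to 9771 to 10450.3 CPM of the library total in KO and 9146 to 12861 CPM in WT. Of these 14, Mef2b had at most 6 counts in any library. The 20 macrophage and dendritic cell markers together reached 400.1, 373 and 3752 CPM in KO libraries, against 443, 1587 and 2997 CPM in WT libraries, so KO 3, WT 2 and WT 3 carried more of them. Of these 20, Xcr1 and Siglech averaged under 1 CPM. Plasma cell markers, mostly Jchain, summed to 2402 to 3002 CPM in KO and 1808 to 2763 CPM in WT, which can hide shifts of scarcer markers. Of the 9 tested, 2 had an unadjusted edgeR p under 0.05 with a positive and 1 with a negative log2 fold change. The shares over all tested genes were 7.1% and 5.5%. T cell markers, mostly Lck and Cd2, summed to 323 to 356 CPM in KO and 336 to 427 CPM in WT. The others were scarce, with Cd4 at 10.9 CPM or less and Cd3d and Cd3g at 15 counts or fewer in every library. Endothelial and stromal markers, almost all Pecam1, summed to 87.5 to 105 CPM in KO and 42.8 to 64.8 CPM in WT. That difference was the one of Pecam1, since Cdh5 reached 1.83 CPM at most and Kdr, Pdgfrb and Col1a1 had at most 9 counts in any library. Granulocyte, platelet and erythroid markers summed to 2.58 to 8.23 CPM in KO and 2.11 to 16.5 CPM in WT. In bulk RNA, fewer cells of a type and less RNA per cell cannot be told apart.

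Of the 8 genes, 7 passed the filter on low counts and none of the 7 differed between KO and WT at an adjusted p under 0.05 (edgeR quasi-likelihood test, Benjamini-Hochberg adjustment over 10926 tested genes). Over all tested genes 9 passed, a share of 0.0824% (0.0732% higher in KO and 0.00915% lower). None of the 7 had an unadjusted edgeR p under 0.05, which 12.6% of all tested genes had (7.1% higher in KO and 5.5% lower). In none of the 8 did the KO and WT libraries lie apart, which they did for 18% of all tested genes (10% with KO above WT and 7.95% with KO below WT). The median log2 fold change of the 7 was 0.03, with 4 above and 3 below 0, and that of all tested genes was 0.01. With DESeq2 and with limma-voom, with or without quality weights, the count of the 7 that passed was also 0.

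Per kilobase of annotated exons the genes fell into an abundant set and a scarce set in both genotypes. Plxnb2 stood at 52.3 ± 17.1 CPM per kb in KO and 75.6 ± 16.1 CPM per kb in WT. Sema7a stood at 49.9 ± 9.67 CPM per kb in KO and 61.6 ± 5.19 CPM per kb in WT, and Sema4d at 42.8 ± 3.96 in KO and 48.6 ± 8.50 in WT on the same scale (SD, n = 3 each, here and below). These 3 overlapped one another over the 6 libraries, with ranges of 34.6 to 90.7 CPM per kb for Plxnb2, 39.7 to 64.9 for Sema7a and 40.1 to 57.4 for Sema4d. Plxnc1 came next at 14.3 ± 1.59 CPM per kb in KO and 10.6 ± 4.16 in WT, with no library of it reaching the lowest value of the first 3. Sema4b followed at 6.24 ± 4.61 CPM per kb in KO and 5.67 ± 0.954 in WT, and its highest library exceeded the lowest of Plxnc1. Plxna1 stood at 1.64 ± 2.27 CPM per kb in KO and 1.61 ± 0.705 in WT, and Plxnd1 at 0.674 ± 0.700 in KO and 0.394 ± 0.105 in WT. Sema4a was lowest, at 0.298 ± 0.119 CPM per kb in KO and 0.103 ± 0.0977 in WT. The order of the 8 group means was the same in KO and WT. Each neighbour in that order overlapped the next over the libraries, except Sema4d and Plxnc1.

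**Figure D1:**
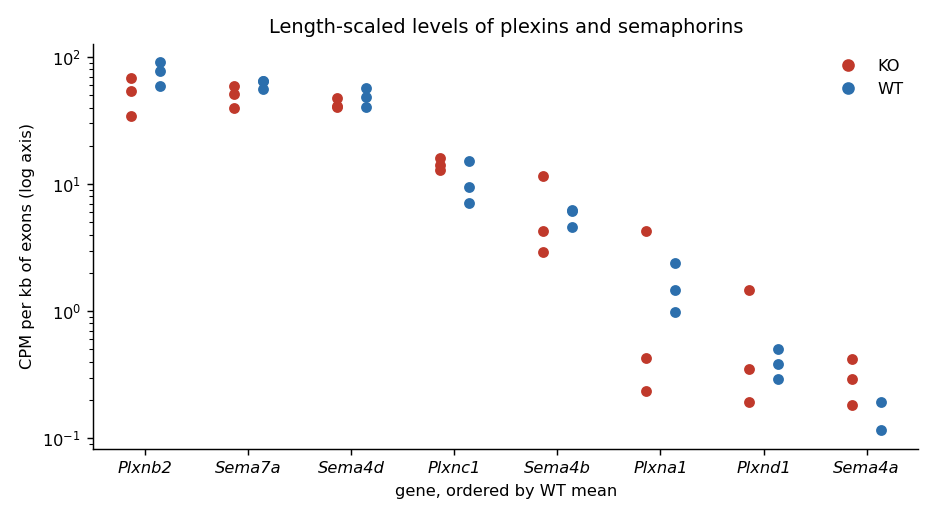
Level of each gene in CPM per kilobase of exons, on a log axis, with 1 point per library (KO left, WT right) and genes ordered by WT mean. Plxnb2, Sema7a and Sema4d lie at 34.6 CPM per kb or more in every library, while Sema4a, listed at 0 in WT 2 and not drawn there, stays at 0.421 CPM per kb or less.

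The promoters of 4 of the genes are shown because the genes stand for the patterns below. Plxnb2 and Plxnc1 had the smallest p of the 7 and opposite signs, and Plxnd1 and Sema4b were the pair most alike across libraries. Each is the 250 bases before the outermost listed RefSeq start (GRCm38.p6), read along the gene's strand. Capitals mark matches to a GC box (GGGCGG, the letters bound by SP and KLF factors) and to an interferon response element (the letters GAAA 2 times with 2 bases between, bound by IRF factors and by the PRDM1 repressor), on either strand. They lie at chr15:89180789-89181038 (minus strand) for Plxnb2, chr10:94944846-94945095 (minus) for Plxnc1, chr6:115995006-115995255 (minus) for Plxnd1 and chr7:80186620-80186869 (plus) for Sema4b.
Plxnb2: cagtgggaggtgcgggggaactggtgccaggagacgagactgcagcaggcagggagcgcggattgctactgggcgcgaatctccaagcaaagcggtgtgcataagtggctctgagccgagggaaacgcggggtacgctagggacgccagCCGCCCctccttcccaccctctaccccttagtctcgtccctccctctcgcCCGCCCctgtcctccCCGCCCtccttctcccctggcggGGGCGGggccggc
Plxnc1: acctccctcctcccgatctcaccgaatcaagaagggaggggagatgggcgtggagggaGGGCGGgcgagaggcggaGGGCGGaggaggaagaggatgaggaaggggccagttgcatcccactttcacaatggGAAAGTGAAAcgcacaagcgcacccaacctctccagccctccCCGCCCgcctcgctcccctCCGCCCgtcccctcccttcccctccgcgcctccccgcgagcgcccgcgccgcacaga
Plxnd1: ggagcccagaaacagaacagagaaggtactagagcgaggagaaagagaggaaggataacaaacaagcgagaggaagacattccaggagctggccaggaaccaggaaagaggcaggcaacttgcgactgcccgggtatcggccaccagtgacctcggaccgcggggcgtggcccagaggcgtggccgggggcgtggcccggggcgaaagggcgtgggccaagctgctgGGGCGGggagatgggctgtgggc
Sema4b: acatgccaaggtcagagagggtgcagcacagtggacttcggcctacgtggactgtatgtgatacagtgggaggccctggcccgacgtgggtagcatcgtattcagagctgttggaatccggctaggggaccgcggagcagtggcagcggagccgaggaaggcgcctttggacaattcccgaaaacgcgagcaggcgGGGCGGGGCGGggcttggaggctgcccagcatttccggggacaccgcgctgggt
The Plxnb2 window held 4 GC boxes, the Plxnc1 window 4, the Plxnd1 window 1 and the Sema4b window 2 that overlap by 1 base. A GC box was present in 32.7% of all 32851 promoter windows of this length. The Plxnc1 window also held 1 interferon response element, whose first base lies 118 bases before the start, and 2.98% of all windows held one. A match to TTCNNNGAA, the letters shared by STAT factors and BCL6, was in none of the 4 windows and in 7.02% of all windows. The GFI1 core AAATCA and the E-box CACGTG were in none of the 4 either, against 12.4% and 6.02% of all windows. Of the 8 genes, 7 had an entry, and Plxna1 was the other.

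Plxnb2 (chromosome 15, 89155549 to 89180788 on the minus strand, build mm10) stood as the most abundant of the plexins. It was read at 267, 415 and 530.2 CPM in KO libraries, against 599, 453 and 700.1 CPM in WT libraries. KO 3 lay above WT 2, so the groups overlapped, and the library labelled KO 1 was lowest. The means were 404 ± 132 CPM in KO and 584 ± 124 CPM in WT, with a log2 fold change at -0.53 (SE 0.27, 95% interval -1.12 to 0.06, edgeR adjusted p = 0.445). Over 17 alternatives the log2 fold change stayed below 0, between -0.80 without KO 3 and -0.32 without the library labelled KO 1. The adjusted p ran from 0.101 to 0.968 over them.

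Plxnc1 (chromosome 10, 94790866 to 94944835 on the minus strand), the plexin that receives Sema7A, was read at 108, 118 and 134 CPM in KO libraries. WT libraries held 59.4, 127 and 79.8 CPM, so WT 2 lay within the KO range and the other two below it. The means were 119.7 ± 13.3 CPM in KO and 88.7 ± 34.7 CPM in WT, with a log2 fold change at 0.43 (SE 0.27, 95% interval -0.16 to 1.01, edgeR adjusted p = 0.529). It was 0.20 without WT 1, 0.78 without WT 2 and 0.15 with the per-library dependence on length and GC content taken out. None of 17 alternatives passed, and their lowest adjusted p was 0.0882. At 49.3%, its longest transcript had the lowest GC content of the 8, the others lying between 53.4% and 60.8%. An unnamed locus, Gm48718, shares 115 bases of exon with Plxnc1 on the same strand.

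Plxna1 (chromosome 6, 89316314 to 89362620 on the minus strand) encodes a receptor of class 3 semaphorins, with neuropilins, and of Sema6D. It was read at 3.87, 2.12 and 38.5 CPM in KO libraries, against 8.93, 13.3 and 21.5 CPM in WT libraries. KO 3 was the highest of all 6 and the other KO libraries were the lowest, an 18.2-fold range within 1 genotype. The means of 14.8 ± 20.5 CPM in KO and 14.6 ± 6.39 CPM in WT differed by far less than the spread in KO (log2 fold change 0.03, SE 1.24, 95% interval -3.22 to 3.28, edgeR adjusted p = 0.996). Without KO 3 the log2 fold change was -2.30 (edgeR adjusted p = 0.0685). The order of the 6 libraries by Plxna1 was the same as their order by the summed macrophage and dendritic cell markers given above. Among those 20 markers, Csf1r, the macrophage growth factor receptor gene, stood at 17.3, 21.7 and 440.1 CPM in KO libraries, against 36.5, 184 and 405 CPM in WT libraries. Not all of the 20 ran this way. Flt3 stood at 86.7, 145 and 132 CPM in KO libraries, against 57.8, 73.7 and 72.0 CPM in WT libraries. Itgam and Itgax were highest in the library labelled KO 1. The part of macrophage RNA in the Plxna1 values was not tested. Gm26811, on the opposite strand, shares 970 bases of exon with Plxna1, and whether the counting used strand is not stated.

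Sema6d, the ligand of plexin A1 in dendritic cells and outside the 8 genes, had a like spread, with 1.06, 1.55 and 32.7 CPM in KO libraries and 2.36, 13.5 and 9.35 CPM in WT libraries. The same 3 libraries, KO 3, WT 2 and WT 3, were the high ones. Its log2 fold change was 0.47 (SE 1.58, edgeR adjusted p = 0.943) and was -2.69 without KO 3 (edgeR adjusted p = 0.126). Tyrobp, the adaptor also known as DAP12 that joins plexin A1 in myeloid cells, was read at 9.87, 9.88 and 77.7 CPM in KO libraries, against 12.9, 64.1 and 117 CPM in WT libraries. Its partner Trem2 had 1 count in all 6 libraries together. Nrp1, the neuropilin coreceptor, stood at 2.51, 0.847 and 7.65 CPM in KO libraries and 0.788, 2.15 and 4.99 CPM in WT libraries, again highest in KO 3 and WT 3. Tyrobp and Nrp1 were named after their values were seen.

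**Figure D2:**
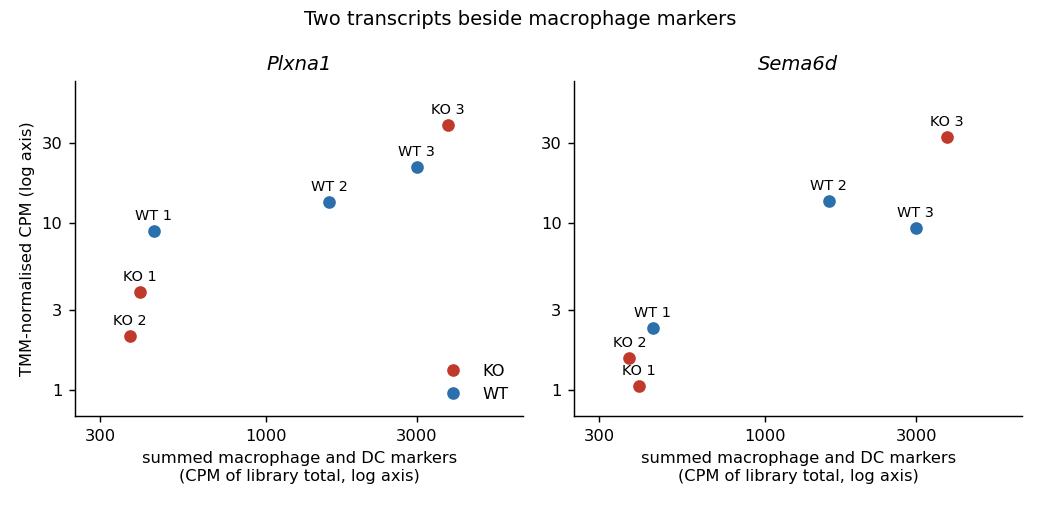
Plxna1 and Sema6d in TMM-normalised CPM against the sum of 20 macrophage and dendritic cell markers in CPM of the library total, both on log axes, with 1 labelled point per library. KO 3, with 3752 CPM of markers, is highest for both genes, and KO 1 and KO 2, with 400.1 and 373 CPM, are lowest.

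Plxnd1 (chromosome 6, 115954811 to 115995005 on the minus strand) was scarce, with 142, 20 and 36 counts in KO libraries and 14, 11 and 9 counts in WT libraries. On the CPM scale it stood at 10.8, 1.41 and 2.57 in KO, against 3.68, 2.15 and 2.81 in WT. The library labelled KO 1 was the highest of all and KO 2 the lowest. The log2 fold change was 0.78 (SE 0.72, 95% interval -0.83 to 2.39, edgeR adjusted p = 0.705) with all libraries and -0.53 without the library labelled KO 1. Its direction therefore rests on that library.

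**Figure D3:**
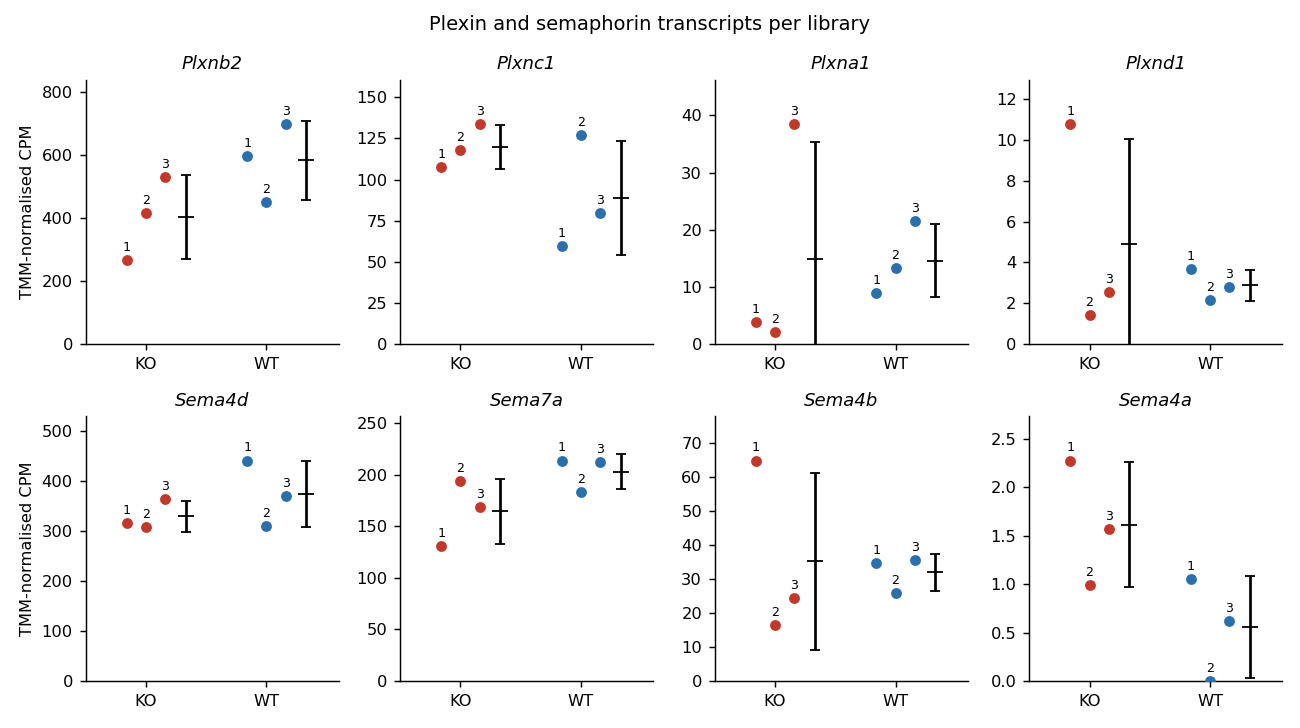
TMM-normalised CPM of the 8 genes, each panel with its own linear axis from 0, KO left and WT right, with 1 numbered point per library and the mean ± SD (n = 3) as a black bar, which is drawn only above 0. The groups overlap in every panel, with KO 1 highest for Plxnd1, Sema4b and Sema4a and KO 3 highest for Plxna1.

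Sema4d (chromosome 13, 51685529 to 51793747 on the minus strand) was the most abundant semaphorin by CPM and varied least of the 8 genes. It was read at 315, 308 and 364 CPM in KO libraries, against 441, 310.4 and 369 CPM in WT libraries. KO 1 and KO 3 lay within the WT range and KO 2 just below it, and the highest library held 1.43 times the lowest. The means were 329 ± 30.4 CPM in KO and 373 ± 65.2 CPM in WT, with a log2 fold change at -0.18 (SE 0.20, edgeR adjusted p = 0.757). The 95% interval ran from 0.647-fold to 1.2-fold, so a change of 2-fold either way lies outside it.

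Sema7a (chromosome 9, 57940112 to 57962865 on the plus strand), the ligand of plexin C1, was read at 131, 194 and 169 CPM in KO libraries, against 214, 184 and 212 CPM in WT libraries. KO 2 lay above WT 2 and the other KO libraries below all WT libraries. The means were 165 ± 31.9 CPM in KO and 203 ± 17.1 CPM in WT, with a log2 fold change at -0.30 (SE 0.21, 95% interval -0.77 to 0.16, edgeR adjusted p = 0.575). It stayed below 0 over 17 alternatives, between -0.43 and -0.10, the last with the length and GC dependence taken out. Without the library labelled KO 1, the lowest of the 6, it was -0.17.

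Sema4b (chromosome 7, 80186841 to 80226527 on the plus strand), a membrane semaphorin of class 4, was read at 64.9, 16.4 and 24.3 CPM in KO libraries, against 34.7, 25.8 and 35.5 CPM in WT libraries. The library labelled KO 1 was above all WT libraries and the other KO libraries were below all of them. The log2 fold change was 0.14 (SE 0.50, 95% interval -1.04 to 1.32, edgeR adjusted p = 0.945), and -0.66 without the library labelled KO 1 (edgeR adjusted p = 0.642). The summed naive and memory B cell markers, among them Cd38, were also highest in that library, at 914 CPM of the library total against 643 and 716 CPM in KO 2 and KO 3 and 362 to 583 CPM in WT. Their part in the Sema4b and Plxnd1 values was not tested.

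Sema4a (chromosome 3, 88435959 to 88461182 on the minus strand), a class 4 semaphorin that binds plexins and, in mice, TIM-2 on T cells, did not pass the filter on low counts. It had 30, 14 and 22 counts in KO libraries and 4, 0 and 2 counts in WT libraries, or 2.28, 0.988 and 1.57 CPM in KO and 1.05, 0 and 0.623 CPM in WT. The lowest KO library lay just below the highest WT library. A count of 0 in WT 2 allows up to 3 counts, or 0.586 CPM. The ratio of pooled CPM, KO over WT, was 3.23 with an exact 95% interval of 1.41 to 9.12 for counting error alone. The ratio was 2.59 without the library labelled KO 1, 6.65 without WT 1 and 1.87 without WT 2, and itself carries no test over mice. With no filter on low counts, edgeR tested Sema4a over the 6 libraries, and it did not pass at an adjusted p under 0.05.

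Across the 6 libraries the 8 genes did not move as a block. Of 28 pairs, Plxnd1 and Sema4b were most alike in log2 CPM (Pearson r = 0.96, Spearman rho = 0.886), as a description over 6 libraries that share the peak in the library labelled KO 1. Plxnb2 and Sema7a came next (r = 0.872, rho = 0.714), both lowest in the library labelled KO 1. Plxnc1 and Sema4d ran most against each other (r = -0.80). Among 8387 other genes with a mean log2 CPM of at least 3, those most like Plxnb2 over the 6 libraries were Yipf2, Rab5b and Orai1, with r of 0.989, 0.989 and 0.98. Those most like Plxnc1 were Tbc1d8b, Pja2 and Snx10, with r of 0.997, 0.995 and 0.995. Tbc1d8b stood at 15.3, 17.1 and 21.0 CPM in KO libraries, against 4.73, 18.8 and 9.04 CPM in WT libraries, the same order of libraries as for Plxnc1. None of these 6 genes passed the test between KO and WT (edgeR adjusted p 0.49 to 0.821). Each r rests on 6 points and was picked as the highest among these candidates.

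None of the tested receptors of semaphorins that are not plexins passed over all genes. Of 15 such receptors and partners in the table, 8 were tested, 5 with a log2 fold change above 0 and 3 below. Of the 8, 3 had an unadjusted edgeR p under 0.05, all with a positive log2 fold change, against 7.1% of all tested genes in that direction. For 2 of the 8 every KO library lay above every WT library, against 10% of all tested genes. The median log2 fold change of the 8 was 0.41. Cd72, the receptor of Sema4D on B cells, was read at 305, 145 and 150.4 CPM in KO libraries, against 97.2, 95.2 and 112 CPM in WT libraries. The groups lay apart, with the library labelled KO 1 well above the other KO libraries. The log2 fold change was 0.98 (SE 0.29, 95% interval 0.34 to 1.62, edgeR adjusted p = 0.26), and 0.53 without that library. The naive and memory B cell marker sum given above lay apart in the same way, and 6 of its 12 tested genes had an unadjusted edgeR p under 0.05 with a positive log2 fold change. Its part in the Cd72 values was not tested.

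Itgb1, the beta 1 integrin chain that binds Sema7A with alpha 1, was read at 233, 366 and 414 CPM in KO libraries, against 148, 258 and 158 CPM in WT libraries. WT 2 lay above the library labelled KO 1 and the rest of the groups lay apart (log2 fold change 0.84, SE 0.28, edgeR adjusted p = 0.284). Its alpha 1 partner Itga1 had at most 11 counts in any library. Timd2, which encodes the Sema4A receptor TIM-2, was even in KO at 25.9, 27.0 and 25.5 CPM and uneven in WT at 12.1, 22.7 and 8.73 CPM. All KO libraries lay above all WT libraries (log2 fold change 0.83, SE 0.33, edgeR adjusted p = 0.33). Over 17 alternatives the log2 fold change stayed above 0 for all 3 genes. Itgb1 and Timd2 passed in 1 of them, limma-voom with quality weights (adjusted p = 0.0338 for Itgb1 and 0.0347 for Timd2), and Cd72 in none. L1cam, an adhesion molecule that partners neuropilin 1, showed a log2 fold change at -0.40 (SE 0.50).

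**Figure D4:**
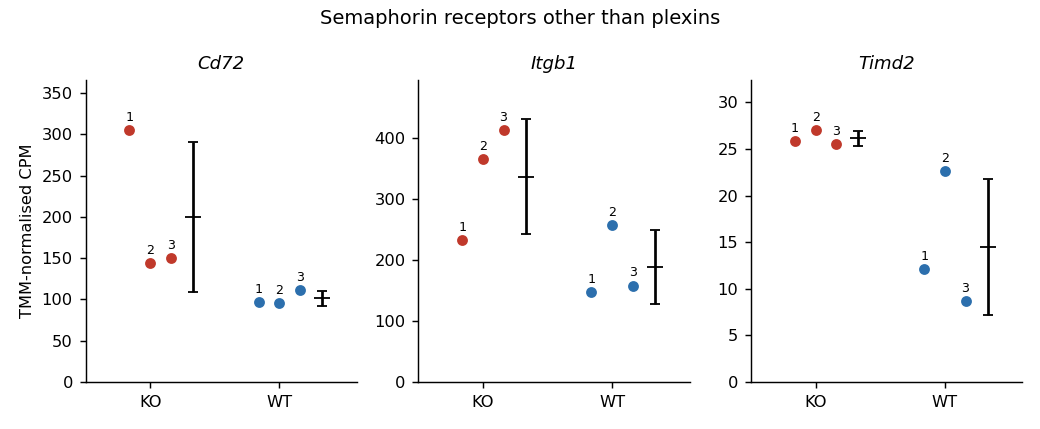
TMM-normalised CPM of Cd72, Itgb1 and Timd2 on linear axes from 0, KO left and WT right, with 1 numbered point per library and the mean ± SD (n = 3) as a black bar. KO lies above WT without overlap for Cd72 and Timd2, and WT 2 exceeds KO 1 for Itgb1.

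**Figure D5:**
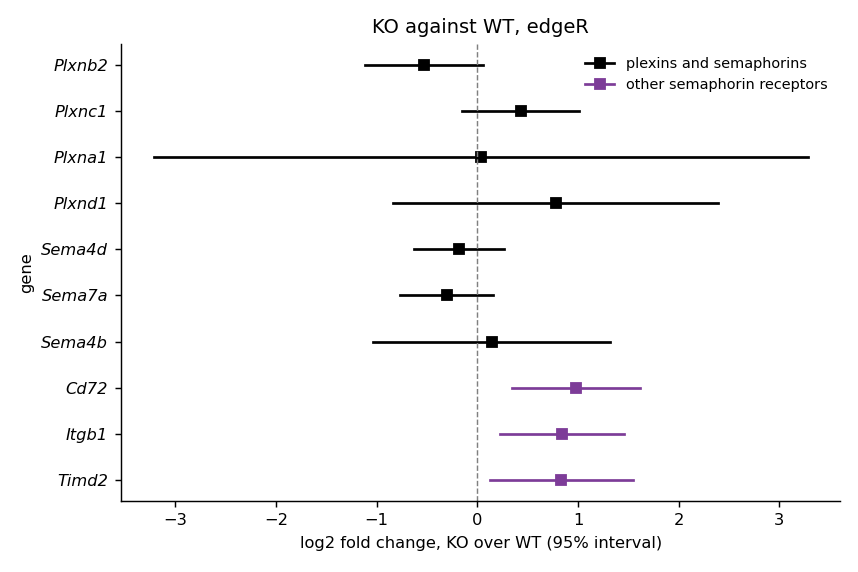
Log2 fold change of KO over WT with its 95% interval (edgeR) for the 7 tested plexin and semaphorin genes in black and 3 other semaphorin receptors in purple. All 7 black intervals cross 0, that of Plxna1 from -3.22 to 3.28, and the 3 purple ones do not, though none of the 10 genes passed after adjustment over all genes. The 3 purple genes were drawn as those with the smallest unadjusted edgeR p of the 8 tested receptors. The intervals of the other tested receptors, not drawn, all cross 0.

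The remaining plexin and semaphorin genes were scarce. Of the other 5 plexin genes in the table, 2 were tested and none passed. Plxna3 showed a log2 fold change at 0.37 (SE 0.55), which was -0.23 without the library labelled KO 1, and Plxnb3 one of -0.08 (SE 0.77). Plxnb1, the plexin B class receptor of Sema4D outside the immune system, had too few counts for the test. It had 7, 17 and 16 counts in KO libraries and 3, 1 and 0 counts in WT libraries. On the CPM scale it stood at 0.532, 1.2 and 1.14 in KO, against 0.788, 0.195 and 0 in WT. KO 1 lay below WT 1, so the groups overlapped. Of 15 other semaphorin genes in the table, 4 were tested and none passed: Sema5a (log2 fold change 0.55, SE 0.68), Sema6a (-0.51, SE 1.06), Sema6b (-0.20, SE 0.56) and Sema6d, given above. Sema4c, the plexin B2 ligand of T follicular helper cells, had at most 9 counts in any library.

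Of 22 tested GTPases, exchange factors and effectors that carry the plexin signal inside the cell, none passed. The log2 fold change was above 0 for 11 and below 0 for 11, with a median of -0.03. An unadjusted edgeR p under 0.05 was found for 2 of the 22, or 9.09%, against 12.6% of all tested genes, and the groups lay apart for 2, against 18% of all tested genes. Rhoa, the GTPase that B class plexins activate through RhoGEFs, was read at 395, 500.03 and 467 CPM in KO libraries, against 532, 639 and 724 CPM in WT libraries. Every KO library lay below every WT library (log2 fold change -0.48, SE 0.21, edgeR adjusted p = 0.369), and the value was -0.82 with the length and GC dependence taken out. Its kinase gene Rock1 was read at 131, 84.4 and 84.2 CPM in KO libraries, against 52.8, 91.1 and 53.0 CPM in WT libraries. The library labelled KO 1 was highest and WT 2 lay above the other KO libraries. Its log2 fold change was 0.60 (SE 0.27, edgeR adjusted p = 0.394), 0.36 without the library labelled KO 1, 0.92 without WT 2 and 0.26 with the length and GC dependence taken out. Arhgef12, a RhoGEF that binds the tail of B class plexins, had one of 0.43 (SE 0.21) with all KO libraries above all WT libraries, and Rasa1, a GTPase activator of Ras, one of 0.56 (SE 0.27). With the length and GC dependence taken out, the value was 0.105 for Arhgef12 and 0.295 for Rasa1. Cdc42, a GTPase of filopodia, and the actin-severing protein gene Cfl1 had the highest CPM of these genes, with log2 fold changes of -0.29 (SE 0.26) and -0.26 (SE 0.22).

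Of 15 tested semaphorin effectors and shedding enzymes, 7 lay above 0 and 8 below, with a median log2 fold change of -0.22, and none passed. Mical3, a flavoprotein oxidase gene of the family that dismantles actin downstream of plexins, was read at 16.2, 11.4 and 15.4 CPM in KO libraries, against 30.5, 23.3 and 20.3 CPM in WT libraries. The groups lay apart (log2 fold change -0.78, SE 0.27, edgeR adjusted p = 0.287). Ptpn6, which encodes the phosphatase SHP-1 that CD72 recruits, stood at 756, 904 and 773 CPM in KO libraries, against 1101, 992 and 1154 CPM in WT libraries, with the groups apart (log2 fold change -0.42, SE 0.20, edgeR adjusted p = 0.407). Adam17, a sheddase gene, showed a log2 fold change at 0.43 (SE 0.22), and the adhesion kinase gene Ptk2b one of -0.36 (SE 0.22). With the length and GC dependence taken out, the value was 0.17 for Adam17 and -0.23 for Ptpn6, and Ptk2b was -0.23 without the library labelled KO 1. Over all 51 tested family and pathway genes outside the 8, 5 had an unadjusted edgeR p under 0.05 with a positive and 2 with a negative log2 fold change, or 13.7%, close to the 12.6% of all tested genes.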

How the data were processed

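RNA of sorted germinal centre B cells from 6 mice was compared, 3 KO and 3 WT, with groups and replicate numbers taken from the sample labels. What the authors deposited is a single table of unnormalised counts by gene symbol. The submitters' processing notes list CASAVA, STAR 2.5.2, featureCounts 1.5.2 and the build mm10. Annotation, strandedness and the handling of multiply mapped reads are not stated there.

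Genotypes were compared on these deposited counts by edgeR 4.0.16, run in R 4.3.3 (filterByExpr, TMM scaling, robust quasi-likelihood fit, no covariates, two-sided, Benjamini-Hochberg adjustment over 10926 genes, threshold 0.05), with each standard error derived from the F statistic. Intervals and floors on counts cover counting error only. Nothing names litters or batches per library, so p-values measure the spread between these mice. The common biological coefficient of variation was 30.8%, and chi-square values per degree of freedom of 14.4 to 50.9 between libraries of a group showed no repeated library. DESeq2 1.42.0, limma 3.58.1 and the other alternatives are given under the dependence on processing. Tests were first run on simulated counts with 200 changed genes, where, over 10746 genes, edgeR recovered 29.0% of 2-fold and 80.0% of 4-fold changes of KO against WT. Positions and exon lengths are from GENCODE vM21, and promoters from RefSeq.

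The 8 genes, the gene lists and the tests were chosen with earlier results of these data known. All 8 genes are named. For each other family or pathway list, up to 4 tested genes with the smallest unadjusted p and up to 2 with the highest CPM are named, except 1 gene that is not reported here. For genes of like pattern, the 3 highest r for each of the 2 listed genes with the smallest p are named. For markers of other cells, the rule allows up to 4 per list with the highest CPM, and sums are given. Marker sums use library totals.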

Additional observations from a re-analysis of the deposited data

How the results depend on the processing

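The alternatives were other scalings, filters and tests, the replicate block, a removed length and GC trend, thinning to the smallest library and leaving out each library. None of the 7 tested plexin and semaphorin genes passed in any alternative that tested it, which was all 17 for 6 genes and 15 for Plxnd1, with no value under the minimum of 5 CPM or after thinning. Of the other family and pathway genes 3 (Itgb1 and Timd2 among them) passed with quality weights in limma-voom and none in the other alternatives where they were tested. Over all genes, against 9 calls, there were 18 with library size alone (16 higher, 2 lower), 93 with no filter (81 and 12), 127 with DESeq2 (93 and 34), 634 with limma-voom and quality weights (290 and 344), 21 with the replicate block, 21 with the length and GC trend removed, 16 after thinning, and 1 to 24 without 1 library (24 without KO 1, 3 without KO 2, 18 without KO 3, 11 without WT 1, and 1 without WT 2 or WT 3). Library size alone moved the median log2 fold change of all genes to 0.13, against 0.01 with TMM. Deviations of same-numbered libraries correlated at 0.341, -0.0525 and 0.443 across genes. KO 1 and KO 3 correlated best with the WT library of the same number, and KO 2 with WT 1. With 3 libraries per group these values cannot decide whether the numbers pair the libraries. With the replicate block 0 of the 7 genes passed.

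Directions turned as follows, and the cause was not tested. Plxna1 turned to -0.00716 with DESeq2 size factors, -0.0106 with DESeq2, -0.974 with limma-voom, -0.792 with quality weights, -0.936 with the replicate block and -0.174 with the length and GC trend removed, and ran from -2.30 to 0.55 without 1 library. Sema4b turned to -0.0874 with limma-voom, -0.211 with quality weights and -0.0984 with the replicate block, and ran from -0.66 to 0.49 without 1 library. Without 1 library Plxnd1 ran from -0.53 to 1.22, Plxna3 from -0.23 to 0.69, Plxnb3 from -0.43 to 1.08, Sema6a from -1 to 0.022, Sema6b from -0.54 to 0.16, Sema6d from -2.69 to 1.02 and Cdc42 from -0.49 to 0.032. Plxnb3 was 0.0508 with library size alone and 0.44 with quality weights, Sema5a -0.142 with quality weights, and Sema6d -0.871 with limma-voom, -0.364 with quality weights and -0.748 with the replicate block. Kdm1a passed without KO 1 (log2 fold change -1.93, edgeR adjusted p = 0.0169). In WT 1 count is worth 0.195 to 0.312 CPM, so Plxnd1, at 9 to 14 counts in WT libraries, and the untested genes are measured coarsely there.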

Other observations

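Sema4f, a class 4 semaphorin gene outside the 8 listed, was named after its values were seen and did not pass the filter on low counts. It had 12, 48 and 61 counts in KO libraries and 2, 0 and 2 counts in WT libraries, or 0.911, 3.39 and 4.36 CPM in KO and 0.525, 0 and 0.623 CPM in WT. All KO libraries lay above all WT libraries, as they did for 10% of all tested genes. The ratio of pooled CPM, KO over WT, was 8.88, with an exact 95% interval of 3.38 to 33.1 for counting error alone. The ratio ran from 5.14 without WT 2 to 13.1 without WT 3 and itself carries no test over mice. With no filter on low counts, edgeR tested Sema4f over the 6 libraries, and it did not pass at an adjusted p under 0.05. Nrp2, the second neuropilin gene, also fell short of the filter. It had 34, 8 and 21 counts in KO libraries and 2, 3 and 2 counts in WT libraries. On the CPM scale it stood at 2.58, 0.565 and 1.501 in KO, against 0.525, 0.586 and 0.623 in WT. KO 2 lay within the WT range, so the groups overlapped.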
